A study of Mus musculus with 5 samples.

Results

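Probes for 9 genes of the ADAM family, Adam8, Adam9, Adam10, Adam12, Adam15, Adam17, Adam19, Adam28 and Adam33, were examined among the 32917 features tested in whole mouse colon. The genes were chosen by the NT-3N against Control contrast of these same arrays, in which Adam33 was already known to be lower, with relatives whose products are active proteases added. Their levels and changes in that contrast are therefore given as a description.

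RNA of 5 wild-type C57BL/B6 mice was hybridised to single-colour (Cy3) Agilent SurePrint G3 mouse arrays, with 1 mouse on each array. The 2 Control mice were compared with 3 NT-3N mice, which had been given NT-3N, an IL-11 receptor agonist, into a vein and whose colon was taken 3 hr later. NT-3N is an engineered form of human IL-11 according to the methods of the study. The text of the study gives an age of 8 weeks for the injected mice and calls the Control mice untreated, so the injection and the agonist cannot be told apart. The study asked which colonic genes respond to IL-11.

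ADAM proteins are membrane-anchored proteins with a metalloprotease domain and a disintegrin domain. The active members cut the extracellular part off other membrane proteins, a process called shedding, and so release growth factors and cytokines, remove receptors from the cell surface and open adhesive contacts. Some of them are held in check by tissue inhibitors of metalloproteinases, and ADAM10 and ADAM17 need partner proteins to leave the secretory pathway. In the gut, ADAM10 is known for its part in Notch signalling in the crypt and ADAM17 for the release of TNF and of ligands of the EGF receptor. Both are also linked to gp130 cytokines, since they can release soluble forms of the IL-6 receptor, and ADAM10 can release the IL-11 receptor.

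On an array, between 70.6% and 72.9% of 56605 probes were well above background, and 0 spots were saturated. Across features, which are not independent replicates, the Control arrays correlated at 0.984, Control replicate 2 with the NT-3N arrays at 0.986 to 0.989 and Control replicate 1 with them at 0.980 to 0.982. The Control arrays were thus less alike than Control replicate 2 and the NT-3N arrays, and more alike than Control replicate 1 and the NT-3N arrays. The epithelium and muscle of the labelled tissue were present on each of the 5 arrays, where all 10 epithelial and all 10 smooth muscle markers were well above background. B cell and follicle markers stood apart in Control replicate 2, where their summed normalized signal was 1203 against 4699 to 5677 on the other arrays.

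Of the 9 genes, Adam33 was the 1 that passed an adjusted p of 0.05 in limma, a linear model fitted over all features with Benjamini-Hochberg adjustment, and it was lower in NT-3N. Over all features 0.143% were called in either direction (47 of 32917) and 0.0182% were called lower. An unadjusted p under 0.05 was reached by 3 of the 9 genes, Adam9, Adam15 and Adam33, and by 9.62% of all features. The arrays of the groups did not overlap for 4 of the 9 genes, with Adam9 and Adam15 higher and Adam17 and Adam33 lower, and for 28.4% of all features. Nothing is read from these shares, since the contrast was used to choose the genes.

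All 9 genes passed the filter on dim probes and were well above background on all 5 arrays, so none was measured in 1 group alone. Log2 fold changes, NT-3N minus Control, were above 0 for 5 genes and below 0 for 4, with a median of 0.039. Without Adam33 the median was 0.044, beside a median of -0.019 over all features, whose middle part lay between -0.17 and 0.13. The changes of the 8 genes other than Adam33 ranged from -0.17 to 0.48, with limma adjusted p from 0.32 to 0.99.

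**Figure D1:**
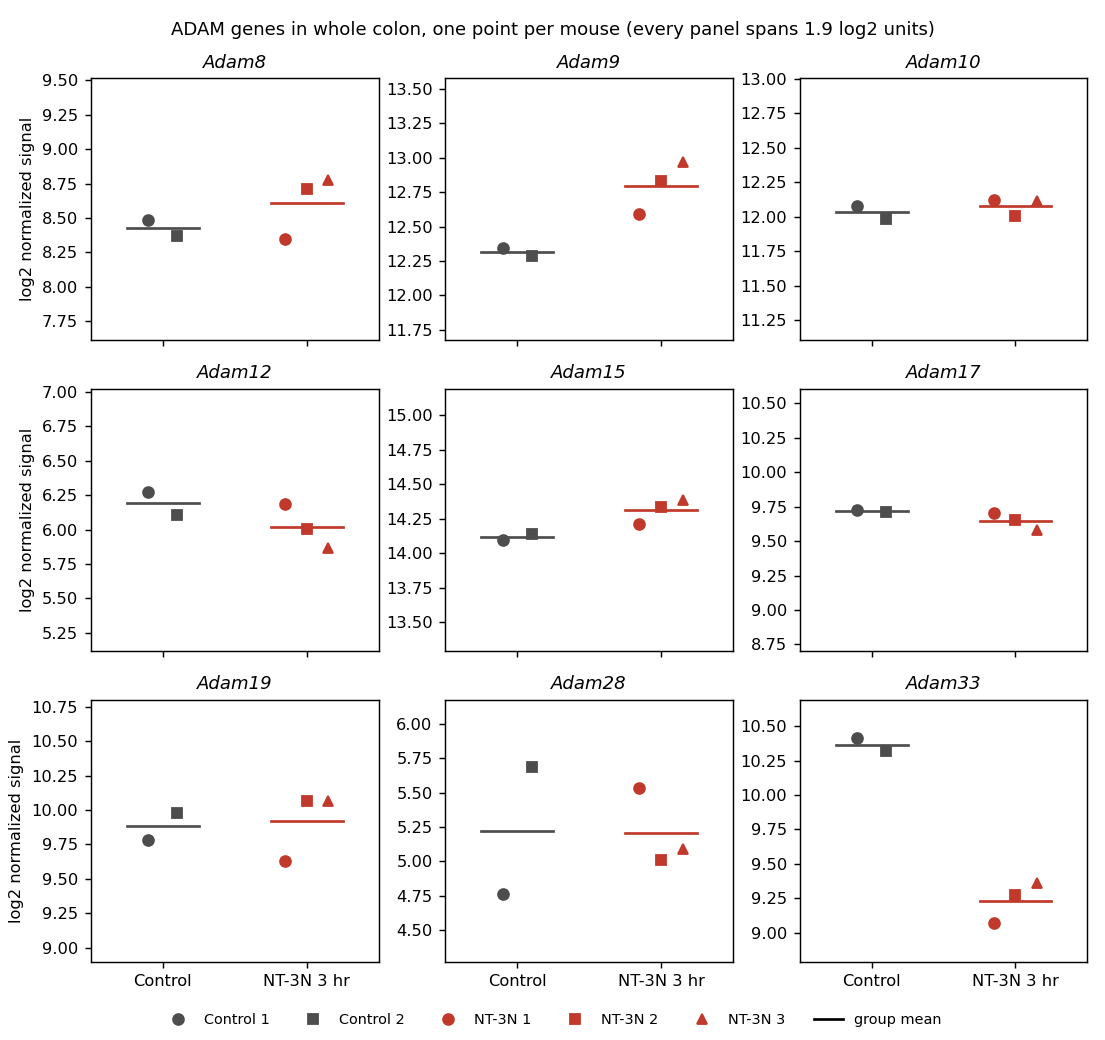
Log2 normalized signal of the 9 ADAM genes (1 panel each), with 1 point for each mouse and a line at the group mean. Adam33 lies between 10.32 and 10.41 on the 2 Control arrays and between 9.07 and 9.36 on the 3 NT-3N arrays; Adam9 and Adam15 lie higher in NT-3N, and in Adam8, Adam10, Adam12, Adam19 and Adam28 the groups overlap.

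Adam33 is a protease of mesenchymal cells, smooth muscle cells and fibroblasts above all, and the human gene is known from the genetics of asthma. Its log2 normalized signal was 10.41 and 10.32 in Control and 9.07, 9.27 and 9.36 in NT-3N. Every NT-3N mouse lay below both Control mice, and NT-3N replicate 1 was the lowest on this probe, the brightest of the gene. The Control mean was 10.37 ± 0.065 (SD, n = 2) and the NT-3N mean 9.23 ± 0.15 (SD, n = 3), a log2 fold change of -1.13 (standard error 0.12, 95% interval from -1.43 to -0.84). The signal was thus 2.19-fold lower, with a limma adjusted p of 0.048, and 201 features had a larger fall. The colon was measured as bulk tissue, where fewer cells of a type and less RNA per cell cannot be told apart.

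The call of Adam33 lay just inside the threshold and was lost when most of the single arrays were left out. Its adjusted p in limma was 0.20 without Control replicate 1, 0.13 without Control replicate 2, 0.18 without NT-3N replicate 2 and 0.21 without NT-3N replicate 3, and 0.037 without NT-3N replicate 1, while the log2 fold change stayed between -1.20 and -1.05.

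The array carries 4 probes for Adam33, and each of the 4 was well above background on all 5 arrays. The brightest of them, A_55_P2083694, gave the values above. Probe A_52_P333289 read 8.60 and 8.68 in Control and 7.55, 7.59 and 7.54 in NT-3N, a log2 fold change of -1.08. Probe A_55_P2491978 read 10.09 and 9.89 in Control and 8.64, 8.95 and 8.97 in NT-3N, a log2 fold change of -1.14. Probe A_55_P2083700, whose name in the array file is that of a predicted transcript model, read 8.11 and 8.24 in Control and 6.57, 6.84 and 6.45 in NT-3N, a log2 fold change of -1.55 with a 95% interval from -1.94 to -1.17. The order of the NT-3N mice changed with the probe, with NT-3N replicate 1 lowest on A_55_P2083694 and A_55_P2491978 and NT-3N replicate 3 lowest on the other 2. The groups did not overlap on any of the 4 probes, which were read on the same 5 RNA samples and are no further replicates. With every probe on the array tested on its own in limma, the adjusted p was 0.039 for A_52_P333289 and A_55_P2083700, 0.043 for A_55_P2083694 and 0.066 for A_55_P2491978.

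**Figure D2:**
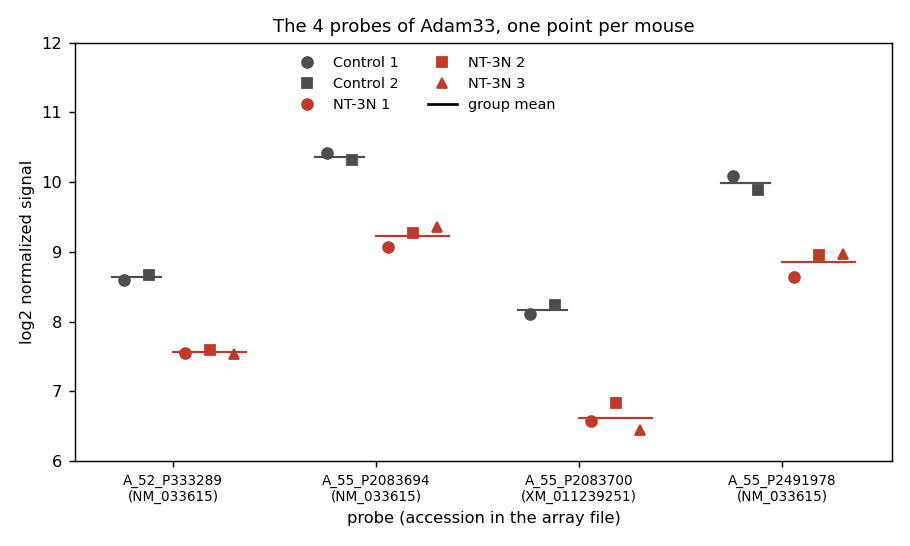
Log2 normalized signal (vertical axis) of the 4 probes of Adam33 (horizontal axis, with the accession in the array file), 1 point for each mouse and a line at the group mean. On each probe the 3 NT-3N points lie below the 2 Control points, with log2 fold changes from -1.55 to -1.08; levels of different probes cannot be set against each other.

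ADAM10 and ADAM17 are the main sheddases of most tissues. Adam10, whose product cuts Notch receptors and E-cadherin, read 12.08 and 11.98 in Control and 12.12, 12.002 and 12.11 in NT-3N. The groups overlapped, and the log2 fold change was 0.049 with a 95% interval from -0.16 to 0.26. Adam17, which encodes the TNF-converting enzyme, read 9.73 and 9.71 in Control and 9.70, 9.66 and 9.58 in NT-3N. The NT-3N arrays lay below Control, but the log2 fold change of -0.073 was smaller than its standard error of 0.098, with a 95% interval from -0.31 to 0.16. The other probe of each gene moved the other way, with log2 fold changes of -0.070 for Adam10 and 0.088 for Adam17. On both of these other probes the groups overlapped. For both genes the interval of the brightest probe leaves out a change as large as that of Adam33.

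Adam9 and Adam15 encode broadly expressed members with both protease and adhesive functions. Adam9 read 12.35 and 12.29 in Control and 12.59, 12.83 and 12.97 in NT-3N. All 3 NT-3N mice lay above both Control mice, with NT-3N replicate 1 nearest to them. Adam9 had a log2 fold change of 0.48 (standard error 0.12) and a 95% interval from 0.18 to 0.77, and it did not pass over all features in limma (adjusted p = 0.32). A single probe on the array represents this gene.

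Adam15 has 3 probes, and on each of them the 3 NT-3N mice lay above the 2 Control mice. Its brightest probe, A_55_P2495927, read 14.10 and 14.14 in Control and 14.21, 14.34 and 14.38 in NT-3N. The log2 fold change was 0.19 with a 95% interval from 0.0020 to 0.38, and it did not pass over all features (limma adjusted p = 0.51). The other probes had log2 fold changes of 0.24 and 0.15. As with Adam9, NT-3N replicate 1 was the NT-3N array nearest to Control on all 3 probes.

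Adam12 and Adam19 encode the meltrins alpha and beta, known from muscle, fat and heart development, and Adam12 is a marker of activated mesenchymal cells in fibrosis. Adam12 read 6.27 and 6.11 in Control and 6.18, 6.003 and 5.87 in NT-3N, a log2 fold change of -0.17 with a 95% interval from -0.61 to 0.26. The groups overlapped, since NT-3N replicate 1 lay above Control replicate 2. Adam19, whose product can shed neuregulins, read 9.78 and 9.98 in Control and 9.63, 10.07 and 10.06 in NT-3N. The lowest and the highest value of Adam19 were both from NT-3N mice, and the log2 fold change was 0.039 with a 95% interval from -0.36 to 0.44. Of the mesenchymal members Adam12, Adam19 and Adam33, Adam33 was thus the 1 whose groups did not overlap. Whether the changes of the 3 genes differ from each other was not tested.

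Adam8 and Adam28 are the members known from leukocytes, Adam8 from myeloid cells and Adam28 from lymphocytes. Adam8 read 8.49 and 8.37 in Control and 8.35, 8.71 and 8.77 in NT-3N. NT-3N replicate 1 was the lowest of the 5 arrays for Adam8 and the other NT-3N arrays were the highest, so the groups overlapped, with a log2 fold change of 0.18 and a 95% interval from -0.20 to 0.57. Of 8 neutrophil markers 5 were tested, and Cxcr2, Retnlg and Ngp were not. Among the 5, S100a8 and S100a9 were well above background on the NT-3N arrays alone. There S100a9 read 8.58, 6.23 and 6.65, highest on NT-3N replicate 1. The summed signal of the 5 was 78095 and 77093 in Control and 77554, 64146 and 67796 in NT-3N. This sum went the other way, but nearly all of it came from the bright Csf3r, so it says little of the other markers. The summed signal of 8 macrophage markers was 10843 and 10056 in Control and 8934, 12384 and 11806 in NT-3N, where NT-3N replicate 1 was the lowest, as for Adam8. The part of these cells in the signal of Adam8 was not tested.

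Adam28 was the member with the widest spread, at 4.76 and 5.68 in Control and 5.53, 5.01 and 5.09 in NT-3N. Both extremes of Adam28 came from the Control mice. It had a log2 fold change of -0.013 (standard error 0.34) and a 95% interval from -0.83 to 0.80. The interval thus does not leave out a change of nearly 2-fold in either direction. Control replicate 2, in which the B cell markers were low, had the highest Adam28 signal. For Adam8 and Adam12 a second probe was well above background on 0 of 5 arrays and was left out.

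**Figure D3:**
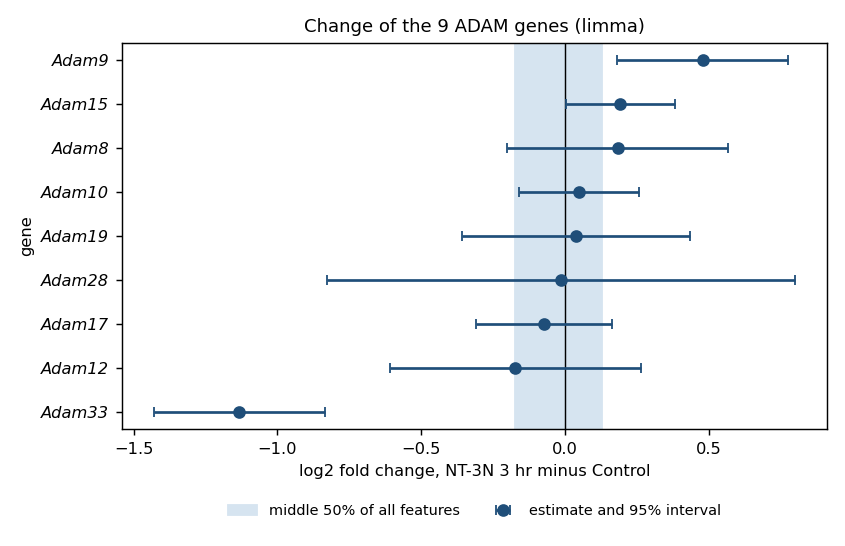
Log2 fold change, NT-3N minus Control (horizontal axis), of the 9 ADAM genes, with 95% intervals from limma and a band over the middle 50% of all features. Adam33 stands at -1.13, apart from the other 8 genes, whose estimates lie between -0.17 and 0.48.

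Counted over probes, 18 probes on the array belong to the 9 genes, 16 passed the filter, and of these 8 lay lower and 8 higher in NT-3N. The probes that were lower were 4 of 4 for Adam33 and 1 each for Adam10, Adam12, Adam17 and Adam28.

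The array also carries probes for 26 other ADAM family genes, many of them known mainly from testis. Of these 12 passed the filter, with 6 higher and 6 lower and a median log2 fold change of 0.012. None of the 12 was called (0 in limma and 0 by the local-pooled-error test, an alternative that also pools the spread over features). In limma 1 of the 12 had an unadjusted p under 0.05, beside 9.62% of all features. The gene at an unadjusted p under 0.05 was Adam32, which read 4.27 and 4.27 in Control and 5.54, 5.26 and 5.45 in NT-3N, a log2 fold change of 1.15 (limma adjusted p = 0.19). Its signal was dim, and its other probes were well above background on 0 arrays. Adam1a followed with a log2 fold change of 0.25, and the lowest were Adam21 with -0.69 and Adam6b with -0.25, whose adjusted p ranged with that of Adam1a from 0.54 to 0.83. Adamdec1, a relative of the gut, had its spot on Control replicate 1 set aside by the scanner as an outlier and was not tested. It read 14.94 on the other Control array and 14.80, 14.55 and 14.53 in NT-3N.

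Natural inhibitors of some of these proteases were read beside them. Of 5 such genes 2 were higher and 3 lower, with a median log2 fold change of -0.062. Limma called 1, Timp1, which encodes a secreted inhibitor of matrix metalloproteinases and of ADAM10. Timp1 read 8.76 and 8.75 in Control and 10.40, 10.56 and 10.28 in NT-3N, a log2 fold change of 1.66 (standard error 0.12, limma adjusted p = 0.012). All 3 NT-3N mice lay far above Control for Timp1. Reck, a membrane-anchored inhibitor of metalloproteases that also acts on ADAM10, read 9.73 and 9.88 in Control and 8.98, 9.42 and 9.41 in NT-3N. The groups did not overlap for Reck, and its log2 fold change of -0.53 did not pass over all features (limma adjusted p = 0.40). Timp3, which encodes the inhibitor of ADAM17, had a log2 fold change of -0.062 with a 95% interval from -0.35 to 0.22 and was chosen after its values were seen. The changes of Timp2 and Timp4 were -0.13 and 0.025.

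Genes for the trafficking and maturation of ADAM proteases lay close to 0. This list holds iRhom pseudoproteases, which carry ADAM17 to the cell surface, TspanC8 tetraspanins, which do so for ADAM10, and proprotein convertases, which cut off the prodomain. Of 12 genes 11 were tested, with 3 higher and 8 lower and a median log2 fold change of -0.079. The highest were Tspan5 with 0.19 and Tspan15 with 0.045, and the lowest Rhbdf1, which encodes iRhom1, with -0.19 and Frmd8, which encodes an iRhom-binding protein, with -0.17. Limma called 0 of the 11, 0 had an unadjusted p under 0.05, and the local-pooled-error test called 0. Tspan10 did not pass the filter.

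Among the substrates, 7 of 8 ligands of the EGF receptor family were tested, with 4 higher and 3 lower and a median log2 fold change of 0.072. The highest were Areg, which encodes amphiregulin, with 0.19 and Ereg, which encodes epiregulin, with 0.17. The lowest were Tgfa with -0.25 and Btc, which encodes betacellulin, with -0.071. The groups overlapped for all 7 ligands. In limma 0 of the 7 ligands were called and 0 had an unadjusted p under 0.05, and the local-pooled-error test called 0. Epgn did not pass the filter.

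Of 30 other membrane proteins that ADAM proteases shed, 28 were tested, with 13 higher and 15 lower and a median log2 fold change of -0.024. The groups did not overlap for 12 of the 28, and for 28.4% of all features. In limma 0 of the 28 were called and 6 had an unadjusted p under 0.05, beside 9.62% of all features. The local-pooled-error test called 1, Tnfrsf1a. The 6 were Il1r2, Icam1, Tnfrsf1a, Sdc4, Met and Il6ra, and of these Icam1, Tnfrsf1a, Sdc4 and Met are named after their values were seen. Erbb4 and Tnfsf11 did not pass the filter.

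Il1r2, the decoy receptor for IL-1, read 5.47 and 5.58 in Control and 6.37, 7.10 and 6.72 in NT-3N. Every NT-3N mouse lay above both Control mice, by 1.21 on the log2 scale on average (limma adjusted p = 0.20). Il6ra, which encodes the IL-6 receptor, read 11.31 and 11.16 in Control and 10.87, 10.96 and 10.83 in NT-3N, a log2 fold change of -0.35 (limma adjusted p = 0.35). Here every NT-3N mouse lay below Control. The log2 fold change was 1.08 for Icam1, an adhesion molecule, 0.58 for Tnfrsf1a, the TNF receptor with a death domain, 0.25 for Sdc4, a heparan sulfate proteoglycan, and 0.23 for Met, the receptor for hepatocyte growth factor. Fcer2a, a B cell receptor for IgE known as an ADAM10 substrate, had a log2 fold change of 1.1 with a 95% interval from -0.72 to 2.92, and read 4.98 on Control replicate 2 against 7.76 on Control replicate 1. Cdh2, which encodes N-cadherin, was next to Il6ra among the lowest with -0.27. RNA levels give no measure of shedding itself.

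**Figure D4:**
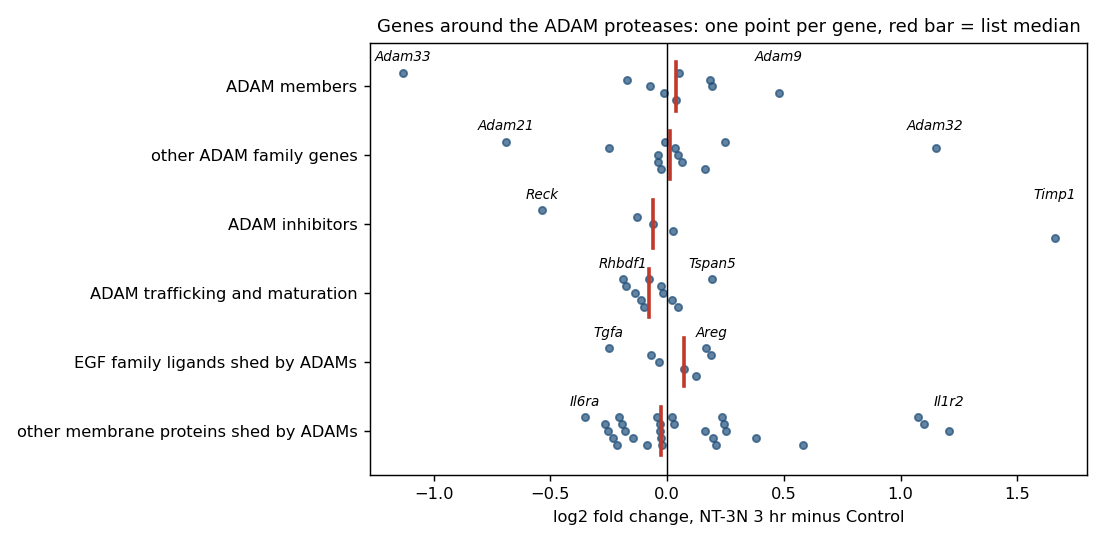
Log2 fold changes, NT-3N minus Control, of the genes tested in each list around the ADAM proteases, with 1 point for each gene and a mark at the list's median. Timp1 at 1.66 is the called gene among the inhibitors, no gene of the trafficking list lies beyond 0.19 in size, and the medians lie between -0.079 and 0.072.

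Since Adam33 is known from smooth muscle cells and fibroblasts, the markers of both were set beside it. All 10 smooth muscle markers were lower in NT-3N, with a median log2 fold change of -0.35. The groups did not overlap for 8 of them, and for 28.4% of all features. In limma 0 of these markers were called and 5 had an unadjusted p under 0.05, beside 9.62% of all features. The local-pooled-error test called 1, Smtn. The largest differences were those of Myocd, a coactivator of the smooth muscle programme, with -0.89 and Smtn, which encodes smoothelin, with -0.88, at limma adjusted p of 0.15 and 0.062. The smallest were those of Myh11 with -0.22 and Acta2 with -0.24, which encode the smooth muscle myosin heavy chain and actin. In all alternatives for which list medians were taken, the median of these markers lay between -0.42 and -0.23. The summed normalized signal of the 10 markers was 476361 to 492502 in Control and 346814 to 436230 in NT-3N. The lowest sum was on NT-3N replicate 1, the array that was lowest on 2 of the 4 probes of Adam33. The fibroblast, macrophage and enteric marker sums were lowest on that array too, and the sums of the other marker lists on other arrays. None of the 10 smooth muscle markers was at background on any array. The part of smooth muscle in the fall of Adam33 was not tested.

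Of 10 fibroblast markers 7 lay higher and 3 lower after NT-3N, and their median log2 fold change was 0.047. This median turned to -0.039 when Control replicate 2 was left out and to -0.029 when NT-3N replicate 2 was, and it was 0.14 with Control replicate 1 left out and 0.22 with NT-3N replicate 1 left out. The summed signal was 68563 to 75319 in Control and 62869 to 93518 in NT-3N, so the groups overlapped. The lowest sum was on NT-3N replicate 1, as for smooth muscle. All 10 fibroblast markers were well above background on all 5 arrays. In limma 0 of them were called and 2 had an unadjusted p under 0.05, beside 9.62% of all features. The local-pooled-error test called 1, Pdpn. The highest were Pdpn, which encodes podoplanin, with a log2 fold change of 1.49 (limma adjusted p = 0.067), and Dcn, which encodes decorin, with 0.32. The lowest were Col1a2 with -0.18 and Thy1 with -0.043. The part of fibroblasts in the signal of Adam33 was not tested either.

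**Figure D5:**
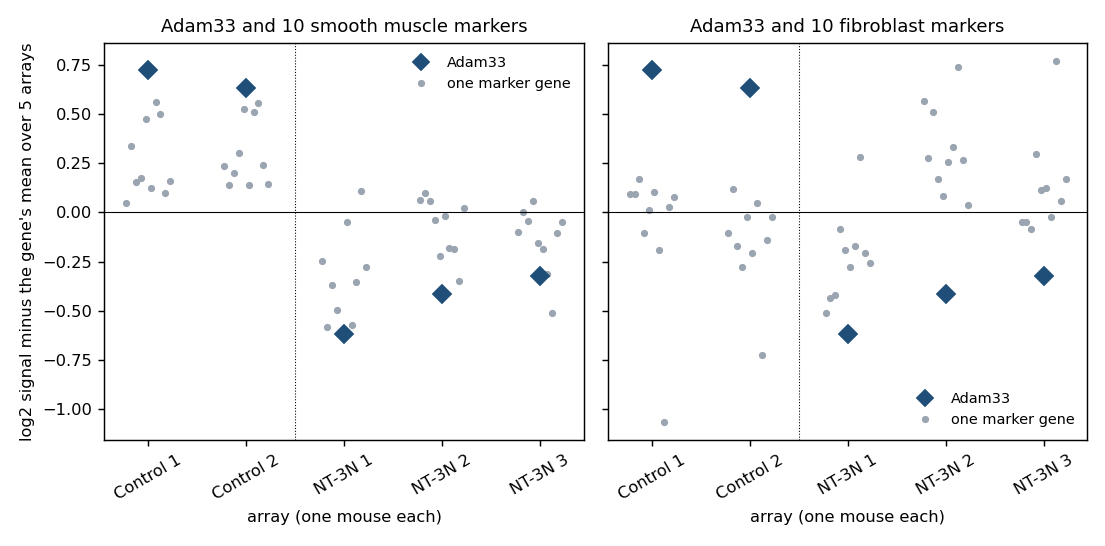
Log2 signal minus the gene's own mean over the 5 arrays (vertical axis) on each array (horizontal axis), for Adam33 (diamonds) and 10 smooth muscle markers (left) or 10 fibroblast markers (right), 1 grey point for each marker. The smooth muscle markers lie lower on the NT-3N arrays with a median log2 fold change of -0.35, against -1.13 for Adam33, while the fibroblast markers scatter around 0 with a median of 0.047.

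The other marker lists had median log2 fold changes of -0.050 for epithelium, 0.15 for endothelium, 0.026 for macrophages, 0.14 for T cells, 0.50 for neutrophils and 1.06 for B cells and follicles. The medians were -0.14 for enteric neurons and glia and -0.27 for fat. Limma called 1 gene in these lists, Gfap, which encodes the intermediate filament of glia, with a log2 fold change of 1.84 (adjusted p = 0.012). The local-pooled-error test called Gfap too, and Car1 of the epithelium, Ms4a1 of the B cell, S100a9 of the neutrophil and Cidec of the fat list. For Gfap, Ms4a1 and S100a9 every NT-3N mouse lay above Control. The groups overlapped for Car1 and Cidec, with log2 fold changes of -0.34 and -0.94 and limma adjusted p of 0.78 and 0.57. In the T cell, macrophage and endothelium lists the local-pooled-error test called 0. The medians of these lists moved with single arrays. With Control replicate 2 left out the median was -0.24 for B cells and -1.60 for fat, and with Control replicate 1 left out it was 2.39 and 0.58. The fat median was also 0.32 with NT-3N replicate 3 left out and -0.95 with NT-3N replicate 1 left out. The summed fat signal ranged from 4124 to 22779 over the arrays, and was highest on Control replicate 1. The neutrophil median was 0.22 without Control replicate 1, 1.21 without Control replicate 2, 0.26 without NT-3N replicate 1 and 0.016 over probes well above background on all arrays. Over the left-out arrays the median ranged from 0.018 to 0.15 for T cells, from 0.055 to 0.22 for endothelium, from -0.022 to 0.16 for macrophages, from -0.17 to 0.0029 for enteric neurons and glia and from -0.080 to -0.036 for epithelium. The T cell, endothelial and epithelial medians were lowest without Control replicate 2, and the macrophage and enteric medians were highest without NT-3N replicate 1. Among the neutrophil markers tested 2 of 5 were well above background on all 5 arrays, so their values are partly bounds. S100a8 and S100a9 passed the filter through the NT-3N arrays alone, so the neutrophil median and the call of S100a9 rest in part on that filter.

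The genes whose profile over the 5 arrays lay nearest to that of Adam33 were sought among 16733 genes, by the root mean square difference of log2 signals after each gene's own mean was subtracted. The nearest was Asb2, which encodes a subunit of a ubiquitin ligase known from muscle, at 0.061. It read 9.37 and 9.23 in Control and 8.11, 8.35 and 8.37 in NT-3N, a log2 fold change of -1.02. It was followed by Cldn22, a claudin, at 0.11, Chst12, a chondroitin sulfotransferase, at 0.11, Hsph1, a heat shock protein, at 0.11 and Ddo, which encodes D-aspartate oxidase, at 0.12. The log2 fold changes of these 4 genes were -1.13, -0.93, -0.98 and -0.93. In all 5 the Control arrays were high and NT-3N replicate 1 was the lowest, as for the brightest probe of Adam33, from which the profile was taken. With so few arrays many genes share such a profile, and 133 features had a fall at least as large as that of Adam33 without overlap of the groups.

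The neighbours of Adam33 on its chromosome, in the order of the RefSeq table of assembly GRCm38.p6, were read for comparison. Gfra4 on one side had a log2 fold change of -0.067 with a 95% interval from -0.38 to 0.24. Siglec1, a macrophage receptor on the other side, had -0.18 with a 95% interval from -0.85 to 0.50. The groups overlapped for both genes. The next neighbours, Mir6973b and Gm30378, had 0 probes and 1 probe that did not pass the filter.

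RefSeq promoter windows, from 250 bases before to 50 after the start of a transcript, were at hand for 5 of the 9 genes, Adam8, Adam10, Adam15, Adam17 and Adam19, in 7 windows. The letters TTCNNNGAA, the core recognised by STAT factors, were found on either strand in 0 of the 7 windows and in 8.3% of 32851 windows of all genes. The letters TGANTCA, the core recognised by AP-1 factors, were found in 1 of the 7 windows, that of Adam19, and in 7.81% of all windows. A match of letters is a description of the window and not a binding site.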

How the data were processed

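Per the labels, total RNA of whole colon was labelled with Cy3. The authors extracted spots with Agilent Feature Extraction 11.0.1.1, and the deposited scanner files hold background-subtracted spot intensity that is not scaled between arrays. Log2 values that the authors deposited as a further table served as an alternative. The 5 arrays shared 1 slide and 1 scan time.

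Control and outlier spots were left out (69 to 184 of 59305 spots per array as outliers), intensity was log2-transformed, spots of a probe were averaged and arrays were quantile-normalized. Probes well above background on at least 2 arrays, with values on both Control and at least 2 NT-3N arrays, were kept. Accessions in the files were matched to symbols of RefSeq GRCm38.p6 for 32994 of 56605 probes. Coordinates are left out, since the array header names another build. A gene was taken from its brightest kept probe.

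Groups were compared with limma 3.58.1 (R 4.3.3), with lmFit and a two-sided eBayes test that follows the intensity trend, adjusted over 32917 features. A local-pooled-error test, which the study used, was written after its published description and run as an alternative. The fit was checked on simulated data. The number of arrays limits the precision, and an exact two-sided permutation test of 1 gene cannot go below p = 0.1.

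The members, lists and tests were chosen with earlier results of these data known. All members were named with every probe, as were listed genes with an adjusted p under 0.05, the 2 highest and 2 lowest of each list around the proteases and of the smooth muscle and fibroblast lists, the 5 nearest profiles and 2 neighbours on each side. For smooth muscle, where all genes were lower, the 2 highest are the smallest differences. The highest and lowest genes of the other marker lists are not named for that rank. Alternatives covered scaling, background, the deposited log2 values, filters, variance model, array weights, replicate block, left-out arrays, several probes, symbols only and the test. Medians of lists were taken in all of these except the variance model, the array weights, the replicate block and the test.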

Additional observations from a re-analysis of the deposited data

How the results depend on the processing

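Adam33 was lower in NT-3N in all alternatives run, but its call was not stable. It was called in 9 of the 14 alternatives that left out no array. The lowest adjusted p among them, 0.0095, came from the local-pooled-error test. Of the 9 genes, 0 were called with median scaling, normexp background correction, no filter on dim probes, no intensity trend and the replicate block, and between 0 and 1 without each array in turn. The log2 fold change of Adam33 and its limma adjusted p were -1.09 and 0.065 with median scaling, -1.10 and 0.052 with normexp, -1.13 and 0.12 with no filter, -1.13 and 0.16 with no trend, and -1.20 and 0.49 with the replicate block. Without each array in turn the log2 fold change ranged from -1.20 to -1.05, and Adam33 was called without NT-3N replicate 1 alone. The count over all features was 47, and it became 2 with no filter, 2 with no trend, 176 with array weights, 0 with the replicate block, 342 with the local-pooled-error test and 0 to 116 without each array. At an unadjusted p under 0.05 in limma, 2488 features passed with the block and 2373 without NT-3N replicate 3, where 0 were called. NT-3N replicate 3 has no Control of the same number, so the block takes it out of the contrast. The log2 fold changes of the 9 genes with the block are therefore those without NT-3N replicate 3. Why 0 features were called in these fits was not tested.

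Replicate numbers were not used as a pairing in the main fit. The deviations of same-numbered mice correlated at 0.13 and 0.036 over 2 pairs. The deviations of the 2 Control arrays mirror each other, so these values are not independent and cannot show whether the numbers pair mice. Members near 0 changed sign. With the mean of probes the log2 fold change was -0.010 for Adam10 and 0.0076 for Adam17. With the replicate block it was -0.032 for Adam19 and 0.047 for Adam28. Without each array it ranged from -0.058 to 0.18 for Adam19 and from -0.47 to 0.45 for Adam28. Where 1 Control array was left out, the remaining one was taken to vary as much as the NT-3N mice. The medians of the lists around the proteases are near 0. In the alternatives for which list medians were taken, some of them changed sign. The counts were 1 for the inhibitors, 2 for the EGF ligands, 5 for the other shed proteins and 3 for the other family genes. A block for slide was not run, since there was 1 slide.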
